A study of Mus with 18 samples.

Results

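Tumour necrosis factor (TNF) made by macrophages, the receptors that bind it and the protease that releases it are described here through 8 genes: Tnf, Tnfsf9, Tnfsf15, Tnfrsf1a, Tnfrsf1b, Adam17, Tnfaip2 and Tnfaip6. They were chosen by symbol, and 8 of 8 were found among the 35510 genes of the deposited count table. The RNA was that of RAW264.7, a macrophage-like line from a mouse with a virus-induced leukaemia, in 18 libraries that make up 6 groups of 3. The labels name 1 group without treatment and 1 stimulated by LPS, the lipopolysaccharide of Gram-negative bacteria. The other 4 groups received LPS and then POx-SA or PPLG-SA, PPLG-2V-SA or PPLG-4V-SA, which the series design calls sialic polymers. Where values are listed for the 3 PPLG polymers, PPLG-SA comes first, then PPLG-2V-SA, then PPLG-4V-SA. No label gives a dose, a time or the meaning of these codes, and no group received a polymer without LPS. All groups share 1 cell line, and the labels do not say that replicates were separate cultures, so a p-value below reflects the spread between libraries alone, which may be technical.

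TNF is made as a membrane protein, and the metalloprotease ADAM17 cuts it from the cell surface. The receptor TNFR1, encoded by Tnfrsf1a, is found on most cells and can lead to NF-kB activation or to cell death. The receptor TNFR2, encoded by Tnfrsf1b, lacks a death domain, is found mainly on blood and vessel cells, and is itself shed by ADAM17. LPS, acting through TLR4, induces Tnf transcription in macrophages, and proteins that bind AU-rich elements limit the life of the mRNA.

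Total counts were 9755591 to 10992859 per untreated library and 13417940 to 19759549 per library in the other groups. Levels are given as CPM, counts scaled to a library size corrected by the TMM method. The correction factors were 0.812 to 0.819 untreated, 0.885 to 1.04 with LPS or POx-SA, and 1.059 to 1.153 in the PPLG groups. Depth and this correction thus differ in every comparison with untreated cells. A call means an adjusted p below 0.05 in the quasi-likelihood test of edgeR, with Benjamini-Hochberg adjustment over 13482 tested genes. These were the genes that passed a filter on low counts, and 8 of 8 members did, Tnfsf15 only through the 3 PPLG groups and Tnfaip6 only through the LPS group. In bulk RNA, fewer cells of a type and less RNA per cell cannot be told apart. All 10 macrophage markers were detected. On plain library totals they summed to 9520 to 10470 CPM untreated, 6878 to 7629 CPM with LPS, 5533 to 7211 CPM with POx-SA and 4514 to 5896 CPM in the PPLG groups. The 8 lymphocyte markers summed to at most 1.57 CPM, with Ms4a1 and Ncr1 at 0. The 9 fibroblast and epithelial markers, with Epcam and Cdh1 at 0, summed to 5.78 to 6.77 CPM untreated, 4.13 to 5.04 CPM with LPS, 0.881 to 1.34 CPM with POx-SA and at most 0.555 CPM in the PPLG groups.

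The 9 libraries of the PPLG groups stood apart from the other 9 in single genes given here. Of the 10 macrophage markers, 4, 3 and 5 rose and 3, 3 and 2 fell with the 3 PPLG polymers. That is 40%, 30% and 50% and 30%, 30% and 20%, where 28.0% to 30.8% of all tested genes rose and 27.1% to 30.7% fell. Adgre1, which encodes F4/80, had group means of 33.0 to 65.5 CPM without PPLG polymers and of 363 to 585 CPM with them, while Lyz2, which encodes lysozyme, went the other way, from 3375 to 7742 CPM to 839 to 863 CPM. The 8 neutrophil and mast cell markers, of which Elane, Cpa3, Kit and Mcpt4 were at 0, summed to 1951 to 2155 CPM untreated, 155 to 240 CPM with LPS, 32.4 to 63.9 CPM with POx-SA and at most 0.230 CPM in the PPLG groups. Nearly all of this was 1 gene, S100a8, at a mean of 2492 CPM untreated on the TMM scale, where S100a9, the only other one tested, was at 9.16 CPM. The Y-linked gene Kdm5d had group means of 12.7 to 16.3 CPM outside the PPLG groups and 57.7 to 64.3 CPM in them, and Eif2s3y 45.3 to 64.6 and 107 to 130 CPM. These Y-linked genes were chosen after values were seen. Such differences move with every comparison of a PPLG group with LPS, POx-SA or untreated cells below. Those of S100a8 and of the macrophage and fibroblast sums move with the LPS comparison as well, and those of S100a8 and the fibroblast sum with POx-SA. Their part in the results was not tested. Replicate 3 of the LPS group and replicate 3 of the POx-SA group deviated from their group means together (r = 0.739 across genes).

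Members changed in each comparison, in numbers that have to be read against a background in which large shares of all genes changed. With LPS against untreated, 3 of 8 members rose and 1 fell, where 30.8% of all tested genes rose and 28.4% fell. Against LPS, 1 member rose and 5 fell with POx-SA (22.2% and 24.1% of all genes), and 2 rose and 5 fell with PPLG-SA (29.2% and 30.7%). With PPLG-2V-SA 2 rose and 4 fell (30.8% and 30.2%), and with PPLG-4V-SA 2 rose and 2 fell (28.0% and 27.1%). These counts include Tnfaip6 after LPS and with each polymer and Tnfsf15 with the PPLG polymers, which were tested only through groups in which they were high, so the counts and medians are a description. The median log2 fold change of the 8 members was 0.18 after LPS, and -0.57, -0.43, -0.41 and -0.24 with the polymers in the same order, against medians of all tested genes of 0.02, 0.00, 0.00, 0.03 and 0.02. The 4 polymer comparisons share the LPS libraries, so they are not independent of each other.

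**Figure D1:**
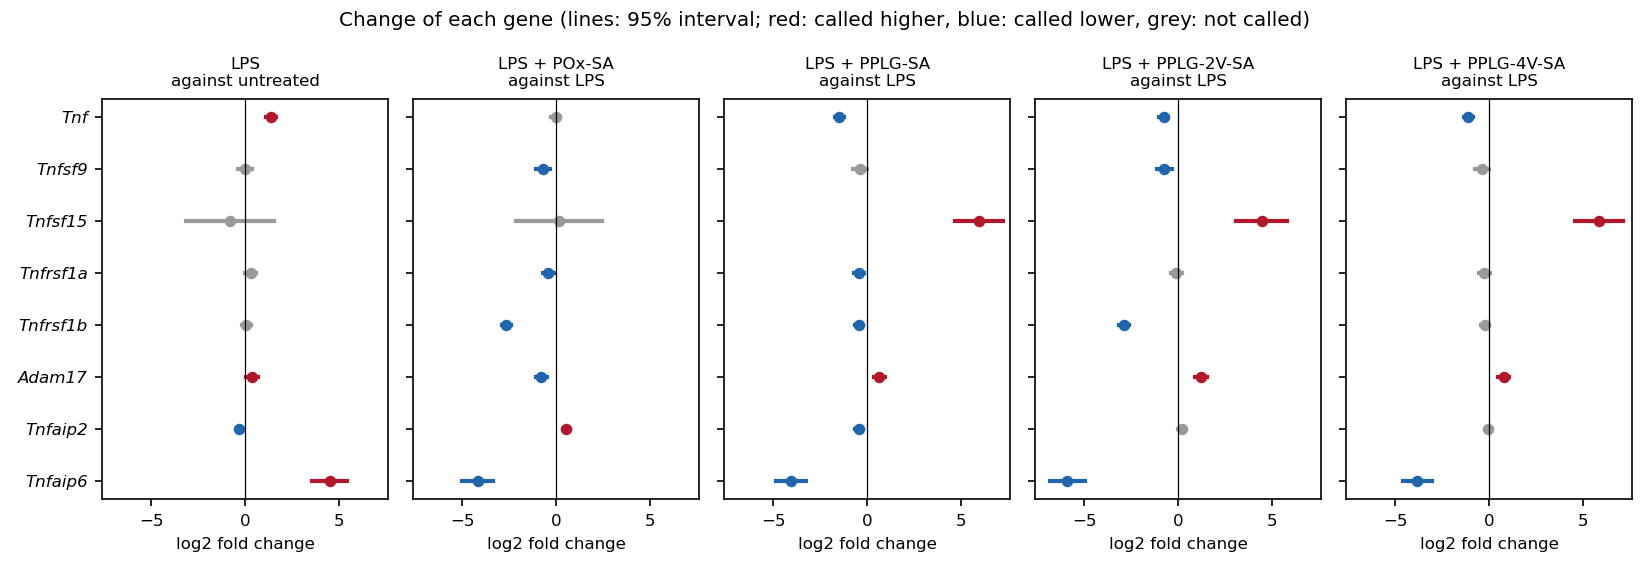
Log2 fold change (horizontal axis) of the 8 genes after LPS and with each polymer compared with LPS, from edgeR; points are estimates, lines are 95% intervals, red and blue mark calls in either direction and grey no call. Tnf was at 1.38 after LPS, at -0.03 with POx-SA and between -1.47 and -0.77 with the PPLG polymers, while Tnfrsf1b was at -2.65 with POx-SA and -2.88 with PPLG-2V-SA.

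The scaling sets where 0 lies on this axis. With plain library totals in place of TMM, the median of all genes moved from 0.02 to 0.29 for LPS against untreated, and to -0.09 for POx-SA and 0.11, 0.24 and 0.19 for the PPLG polymers compared with LPS. The split of calls after LPS was 4149 higher and 3833 lower with TMM, 5619 and 2537 with plain totals, and 5927 and 2304 in limma on log2(FPKM + 1). With PPLG-2V-SA it was 4152 and 4070 with TMM against 5339 and 3123 with plain totals, and with PPLG-4V-SA 3775 and 3651 against 4885 and 2776. With POx-SA it was 2992 and 3247 with TMM and 2232 and 3934 in limma on log2(FPKM + 1). Directions below are therefore relative to the TMM scale, and those of members that turn on another scale are named. Single genes other than the members were not followed on other scales.

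Tnf itself rose after LPS, was not called with POx-SA, and fell with each PPLG polymer. The 3 untreated libraries held 321, 313 and 336 CPM, and the LPS libraries held 831, 705 and 981 CPM. The POx-SA libraries held 752, 790 and 928 CPM. Every library of the LPS and POx-SA groups thus lay above every untreated one, and the 2 groups overlapped. With PPLG-SA the libraries held 307, 294 and 306 CPM, with PPLG-2V-SA 517, 451 and 510 CPM, and with PPLG-4V-SA 415, 371 and 382 CPM. No PPLG library overlapped the LPS or POx-SA libraries, and those of PPLG-SA lay just below the untreated range.

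After LPS, the log2 fold change of Tnf was 1.38 ± 0.12 (SE, n = 3 in each group; adjusted p = 3.27e-08 in edgeR). With POx-SA against LPS it was -0.03, with a 95% interval of -0.27 to 0.21 (adjusted p = 0.862). With PPLG-SA Tnf fell by 1.47 ± 0.12 on the log2 scale (adjusted p = 1.21e-08), which is 2.78-fold lower. It fell by 0.77 ± 0.12 with PPLG-2V-SA (adjusted p = 1.74e-05) and by 1.11 ± 0.12 with PPLG-4V-SA (adjusted p = 3.89e-07). The 4 calls were kept under 16 alternatives each, and POx-SA was called under none, with values from -0.14 to 0.12.

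Among the polymers, Tnf was higher with PPLG-2V-SA than with PPLG-SA by 0.70 ± 0.12 (adjusted p = 2.38e-04). The difference of PPLG-4V-SA from PPLG-SA was 0.36 (95% interval 0.12 to 0.61, adjusted p = 0.107) and that of PPLG-4V-SA from PPLG-2V-SA was -0.34 (-0.58 to -0.10, adjusted p = 0.0627). Neither was called, though the 3 groups did not overlap, and DESeq2 called both (adjusted p = 0.0479 and 0.0189). Against untreated cells Tnf stood at 1.35 with POx-SA (adjusted p = 3.61e-08) and 0.61 with PPLG-2V-SA (adjusted p = 1.25e-04). With PPLG-4V-SA it stood at 0.27 (adjusted p = 0.0445), a call lost in DESeq2 (adjusted p = 0.113), without any 1 untreated library and without PPLG-4V-SA replicate 1 or 3 (adjusted p from 0.0637 to 0.151). With PPLG-SA it was at -0.10 (adjusted p = 0.476), and this turned to 0.29 (adjusted p = 0.0103) on plain library totals.

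**Figure D2:**
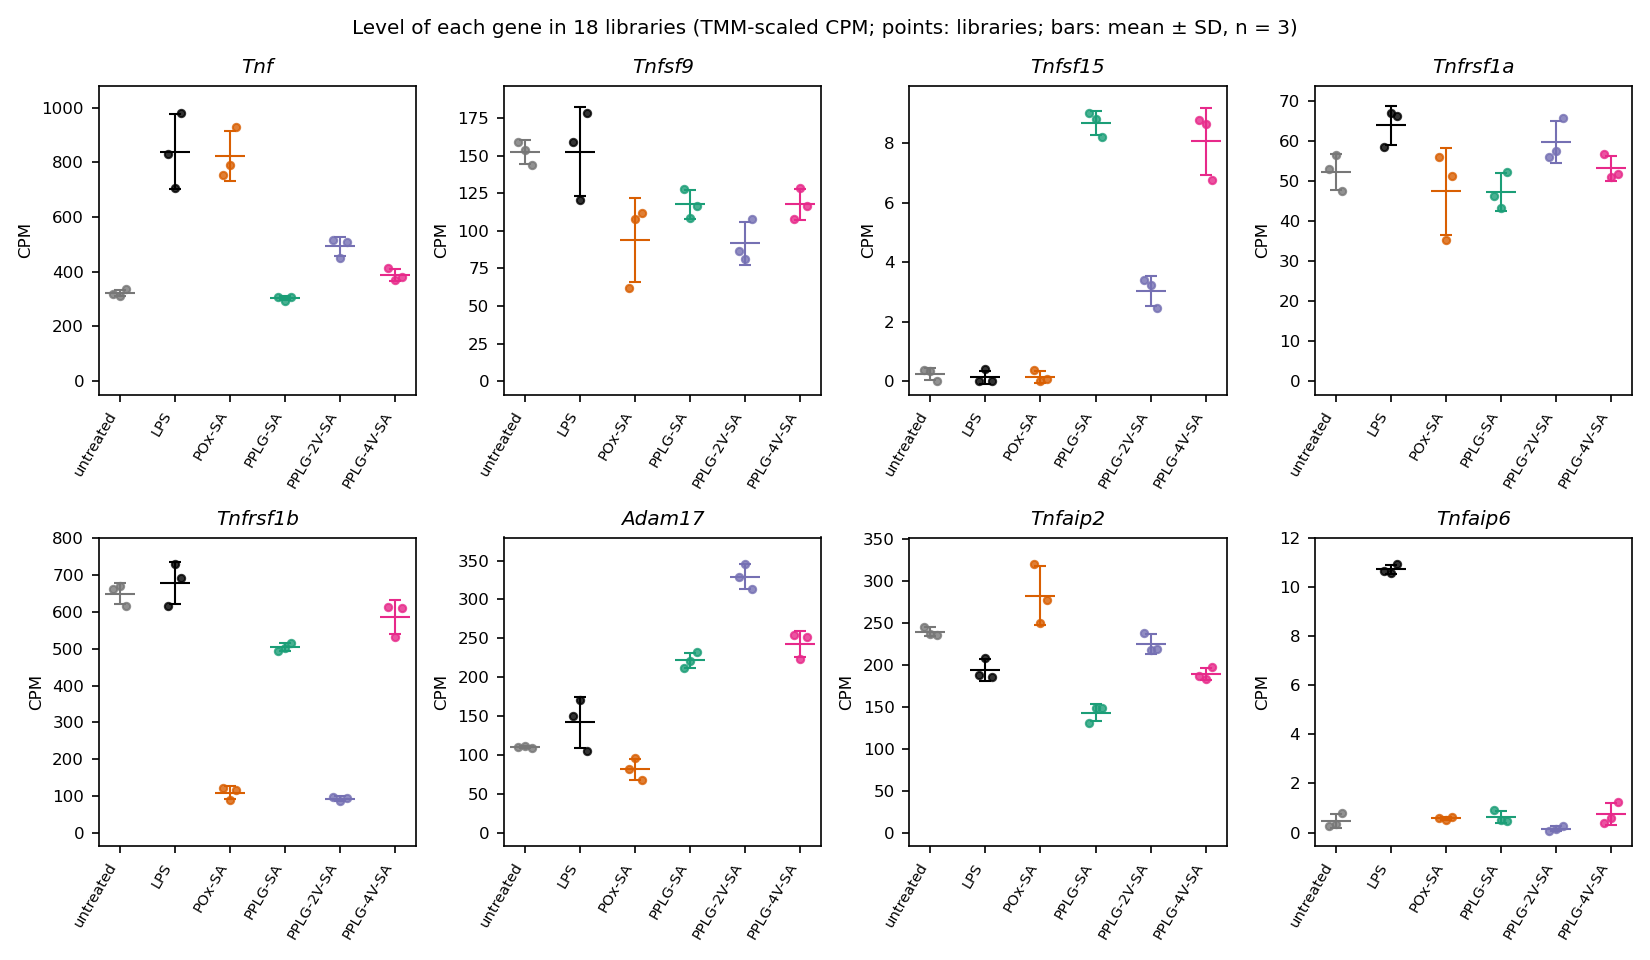
Level of each of the 8 genes (vertical axes, TMM-scaled CPM, linear) in the 6 groups; points are the 18 libraries, and bars are the mean ± SD of 3. Tnf was highest with LPS and POx-SA, Tnfrsf1b was near 100 CPM only with POx-SA and PPLG-2V-SA, Tnfsf15 was above 1 CPM only in the PPLG groups, and Tnfaip6 was above it only with LPS and in 1 library of PPLG-4V-SA.

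Tnfsf9 encodes the ligand of the costimulatory receptor CD137, and its level did not follow that of Tnf. It held 144 to 159 CPM in untreated libraries and 121 to 179 CPM with LPS. These ranges overlapped, and the log2 fold change was 0.00 ± 0.18 (adjusted p = 0.989). With POx-SA it held 61.7, 108 and 112 CPM and fell by 0.70 ± 0.18 (adjusted p = 0.00459). With PPLG-2V-SA it held 86.5, 80.9 and 108 CPM and fell by 0.73 ± 0.18 (adjusted p = 0.00227). The values of both groups lay below every LPS library. With PPLG-SA and PPLG-4V-SA the libraries overlapped those of LPS, and the differences of -0.37 and -0.38 were not called (adjusted p = 0.0868 and 0.0893); without LPS replicate 2, the lowest of its group, both were called at -0.52 (adjusted p = 0.0280 and 0.0295). No pair of polymers was called for Tnfsf9, but PPLG-SA and PPLG-4V-SA were called higher than POx-SA on plain library totals (0.55 and 0.60, adjusted p = 0.00636 and 0.00307) and without replicates 3 of LPS and POx-SA (0.45 and 0.43, adjusted p = 0.0301 and 0.0342). In fits of 2 groups PPLG-2V-SA was called lower than PPLG-SA (-0.39, adjusted p = 0.00257), and PPLG-4V-SA higher than PPLG-2V-SA (0.36, adjusted p = 0.00461). The call with POx-SA was lost in a fit of the 2 groups alone (adjusted p = 0.0806). The gene overlaps Gm11110 in the RefSeq annotation, whose mean level was 10.2 to 18.1 CPM, and since a strand setting is not given in the sources used here, reads of the pair may not be separated.

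The receptor of this ligand, CD137, is encoded by Tnfrsf9, which fell after LPS from 30.0 ± 3.16 to 17.9 ± 3.88 CPM (SD, n = 3; adjusted p = 0.00144). It fell further with POx-SA, to 5.52 ± 1.52 CPM (adjusted p = 1.73e-06), and with PPLG-2V-SA, to 10.7 ± 1.07 CPM (adjusted p = 0.00176). With PPLG-SA it was at 20.1 ± 1.25 CPM and with PPLG-4V-SA at 18.6 ± 2.96 CPM, and neither was called. Tnfrsf9 and Tnfsf9 were thus both called lower with the same 2 polymers, POx-SA and PPLG-2V-SA.

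Tnfsf15, which encodes the ligand TL1A, was near the floor outside the PPLG groups. Its counts were 3, 3 and 0 in untreated libraries. The LPS libraries held 0, 6 and 0 counts and those of POx-SA held 5, 0 and 1. They were 129, 136 and 135 with PPLG-SA, 61, 58 and 54 with PPLG-2V-SA, and 157, 160 and 131 with PPLG-4V-SA. The PPLG libraries therefore held 2.45 to 9.01 CPM and the other 9 at most 0.391 CPM, with no overlap. The fitted log2 fold changes against LPS were 5.96 ± 0.61, 4.44 ± 0.65 and 5.86 ± 0.61 for the PPLG polymers. They are given as a description with no p-value, since Tnfsf15 was tested only through the groups in which it was high. Their size rests on the 6 counts of LPS replicate 2, without which the first became 10.04, and it was 1.29 on log2(FPKM + 1), a scale that compresses low genes.

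Tnfsf15 was lower with PPLG-2V-SA than with PPLG-SA by 1.52 ± 0.39 on the log2 scale (adjusted p = 0.00824). PPLG-4V-SA exceeded PPLG-2V-SA by 1.42 ± 0.39 (adjusted p = 0.0248), a call lost without any 1 library of either group (adjusted p from 0.0501 to 0.104). PPLG-4V-SA and PPLG-SA overlapped (difference -0.11, 95% interval -0.89 to 0.68). Of the 3 PPLG groups, PPLG-2V-SA was the lowest for Tnfsf15 and the highest for Tnf and Adam17. The receptor gene of TL1A, Tnfrsf25, was too low to be tested.

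Of the 2 TNF receptors, Tnfrsf1a had the narrower span of group means, 0.454 on the log2 scale against 2.875 for Tnfrsf1b. Tnfrsf1a held 47.5 to 56.4 CPM untreated and 58.4 to 67.0 CPM with LPS. The 2 ranges did not overlap, but the log2 fold change of 0.29 ± 0.14 was not called (adjusted p = 0.0833). It was called on plain library totals (0.57, adjusted p = 0.00427), on log2(FPKM + 1) (0.61, adjusted p = 0.00204), without a filter (0.36, adjusted p = 0.0387) and in a fit of the 2 groups (0.33, adjusted p = 0.0333). With POx-SA it held 55.9, 35.2 and 51.2 CPM and fell by 0.43 ± 0.14 (adjusted p = 0.0167). That call was lost without POx-SA replicate 2, the lowest library (-0.24, adjusted p = 0.106), and without LPS replicate 2 (-0.40, adjusted p = 0.0518). With PPLG-SA it held 46.3, 43.1 and 52.3 CPM and fell by 0.44 ± 0.14 (adjusted p = 0.0118), a call lost on plain library totals (-0.33, adjusted p = 0.0732) and without PPLG-SA replicate 2 (-0.37, adjusted p = 0.0581). Differences from LPS were -0.10 with PPLG-2V-SA and -0.27 with PPLG-4V-SA, and neither was called.

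Tnfrsf1b changed by far more with POx-SA and PPLG-2V-SA, and split the polymers differently from Tnf. Its level was 663, 670 and 618 CPM untreated and 617, 730 and 692 CPM with LPS, and the difference of 0.06 ± 0.11 was not called (adjusted p = 0.641). On plain library totals it was called at 0.34 (adjusted p = 0.0244) and on log2(FPKM + 1) at 0.50 (adjusted p = 0.00190). With POx-SA it was 121, 89.3 and 115 CPM, and with PPLG-2V-SA 96.5, 85.5 and 95.3 CPM. Every library of these 2 groups lay below 125 CPM. With PPLG-SA the libraries held 495, 501 and 516 CPM, and with PPLG-4V-SA 612, 533 and 612 CPM, all below the lowest LPS library and far above those of POx-SA and PPLG-2V-SA.

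Against LPS, Tnfrsf1b fell by 2.65 ± 0.12 on the log2 scale with POx-SA (adjusted p = 4.41e-11) and by 2.88 ± 0.12 with PPLG-2V-SA (adjusted p = 1.86e-12), or 6.25-fold and 7.35-fold. With PPLG-SA it fell by 0.43 ± 0.11 (adjusted p = 0.00287), and with PPLG-4V-SA the difference of -0.22 ± 0.11 was not called (adjusted p = 0.108), though DESeq2 called it (-0.25, adjusted p = 0.0362). The difference between the PPLG polymers was itself tested. Tnfrsf1b was lower with PPLG-2V-SA than with PPLG-SA by 2.45 ± 0.12 (adjusted p = 2.05e-10), and PPLG-4V-SA exceeded PPLG-2V-SA by 2.66 ± 0.12 (adjusted p = 8.46e-11). POx-SA and PPLG-2V-SA overlapped (difference -0.23, 95% interval -0.47 to 0.00, adjusted p = 0.0771), and that difference was called in DESeq2 (-0.28, adjusted p = 0.0195) and without POx-SA replicate 2 (-0.40, adjusted p = 0.00300). PPLG-4V-SA and PPLG-SA differed by 0.22 (-0.02 to 0.45), which was not called.

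The balance of the 2 TNF receptors was compared on the deposited FPKM, which is scaled to gene length, so that levels of different genes can be set side by side. In the LPS group the mean FPKM was 539 for Tnf, 153 for Tnfrsf1b, 141 for Tnfsf9, 55.0 for Tnfaip2, 32.4 for Adam17, 30.4 for Tnfrsf1a, 7.16 for Tnfaip6 and 0.0233 for Tnfsf15. The FPKM ratio of Tnfrsf1b to Tnfrsf1a was 5.51 ± 0.280 untreated (SD, n = 3), 5.03 ± 0.357 with LPS, 5.01 ± 0.512 with PPLG-SA and 5.09 ± 0.325 with PPLG-4V-SA. It was 1.05 ± 0.148 with POx-SA and 0.719 ± 0.0685 with PPLG-2V-SA. These 2 groups did not overlap any other, and in PPLG-2V-SA Tnfrsf1a exceeded Tnfrsf1b in each library. A ratio within a library does not depend on its library total, but it does depend on the length term. That term was not fixed across libraries. Tnfrsf1b had 9558 and 10407 counts in LPS replicates 1 and 3, on totals of 15886080 and 15971157. Its FPKM there was 140.67 and 140.94. Small differences in these ratios may thus reflect the length term, which was not tested. No test of the ratio was made; an exact permutation test of 3 against 3 reaches p = 0.1 at the lowest.

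**Figure D3:**
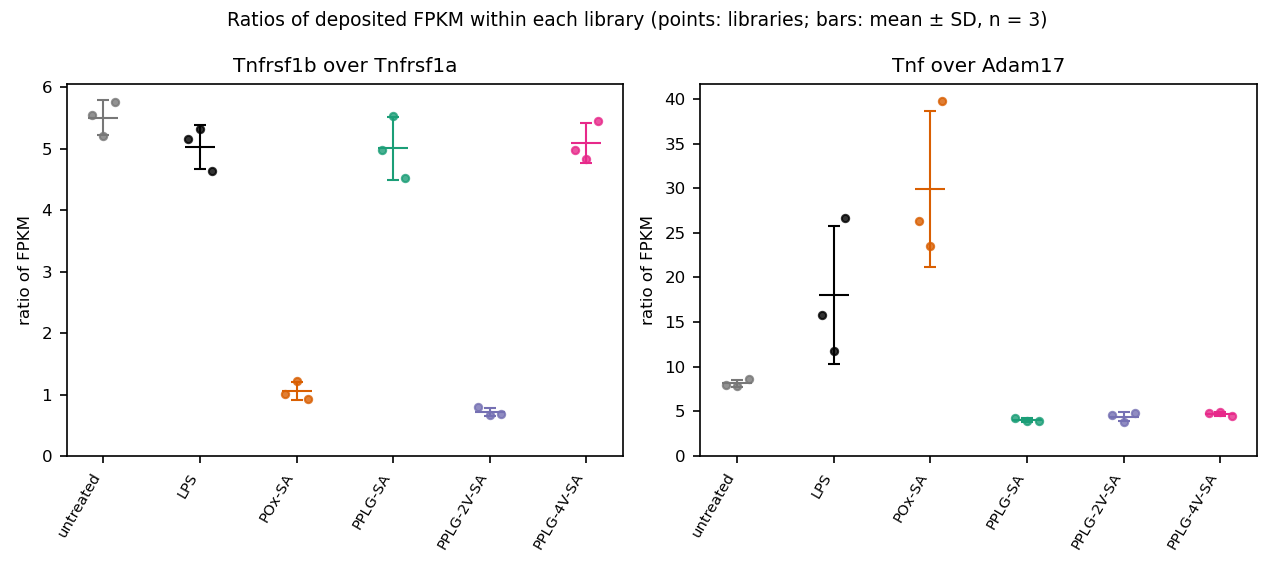
Ratio of deposited FPKM of Tnfrsf1b to Tnfrsf1a (left) and of Tnf to Adam17 (right) in each library (vertical axes, linear from 0); points are libraries, bars the mean ± SD of 3. The receptor ratio was 4.52 to 5.77 in 4 groups and 0.669 to 1.22 with POx-SA and PPLG-2V-SA, and the ratio of Tnf to Adam17 was at most 4.88 in the PPLG groups.

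Adam17 rose with each PPLG polymer and fell with POx-SA. Its level was 111, 112 and 109 CPM untreated and 149, 171 and 106 CPM with LPS. LPS replicate 3 lay below the untreated libraries. With POx-SA the libraries held 81.3, 95.5 and 68.3 CPM, fewer than any library of LPS. With PPLG-SA they held 212, 220 and 232 CPM, with PPLG-2V-SA 329, 345 and 314 CPM, and with PPLG-4V-SA 254, 224 and 251 CPM. All 9 PPLG libraries lay above every other library.

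The rise of Adam17 after LPS was 0.36 ± 0.14 on the log2 scale (adjusted p = 0.0373), and this call was lost in DESeq2 (0.32, adjusted p = 0.0645), without LPS replicate 1 (0.33, adjusted p = 0.0952), without LPS replicate 2 (0.21, adjusted p = 0.218) and without any 1 untreated library (0.36 to 0.37, adjusted p from 0.0776 to 0.0850). Against LPS, Adam17 fell by 0.80 ± 0.14 with POx-SA (adjusted p = 2.04e-04). It rose by 0.64 ± 0.14 with PPLG-SA (adjusted p = 8.27e-04), by 1.22 ± 0.14 with PPLG-2V-SA (adjusted p = 1.07e-06) and by 0.78 ± 0.14 with PPLG-4V-SA (adjusted p = 1.73e-04). These 4 calls were kept under every alternative run. PPLG-2V-SA exceeded PPLG-SA by 0.57 ± 0.14 (adjusted p = 0.00576), and PPLG-4V-SA was below PPLG-2V-SA by a difference of -0.44 ± 0.14 (adjusted p = 0.0494), a call lost without any 1 library of either group (adjusted p from 0.0775 to 0.195). PPLG-4V-SA and PPLG-SA overlapped (0.13, 95% interval -0.16 to 0.43).

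Tnf and Adam17 therefore moved in opposite directions with the PPLG polymers. The FPKM ratio of Tnf to Adam17 was 8.16 ± 0.408 untreated, 18.1 ± 7.73 with LPS and 29.9 ± 8.72 with POx-SA. It was 4.02 ± 0.190 with PPLG-SA, 4.41 ± 0.505 with PPLG-2V-SA and 4.74 ± 0.224 with PPLG-4V-SA. The PPLG libraries lay below all untreated ones, and the LPS group was wide, from 11.7 to 26.7. Adam17 overlaps Iah1 in the RefSeq annotation. Iah1 fell in each polymer group against LPS, by 0.44 to 0.55 on the log2 scale, so it moved against Adam17 in the PPLG groups and with it in the POx-SA group. Its mean level was 19.3 to 28.4 CPM, well under that of Adam17.

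Tnfaip2 and Tnfaip6 carry names from their induction by TNF. Tnfaip2 encodes M-Sec, which takes part in forming tunnelling nanotubes between cells. It held 236 to 246 CPM untreated and 185 to 208 CPM with LPS, and fell by 0.30 ± 0.10 (adjusted p = 0.0115), a call lost on plain library totals (-0.03, adjusted p = 0.856). With POx-SA it held 320, 251 and 277 CPM, above every LPS library, and rose by 0.54 ± 0.10 (adjusted p = 1.85e-04). With PPLG-SA it held 131, 149 and 149 CPM and fell by 0.44 ± 0.10 (adjusted p = 7.92e-04). Tnfaip2 was thus highest with POx-SA and lowest with PPLG-SA, which differed by -0.99 ± 0.10 (adjusted p = 1.72e-07). The differences of PPLG-2V-SA and of PPLG-4V-SA from LPS of 0.21 (adjusted p = 0.0620) and -0.04 (adjusted p = 0.769) were not called, the former being called on plain totals (0.42, adjusted p = 0.00525).

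Tnfaip6 encodes TSG-6, a secreted protein that binds hyaluronan. Its counts were 2, 3 and 7 untreated and 165, 162 and 164 with LPS. With POx-SA they were 8, 7 and 9, with PPLG-SA 13, 8 and 8, with PPLG-2V-SA 1, 3 and 6, and with PPLG-4V-SA 7, 11 and 24. Every LPS library held at least 10.6 CPM, and no other library held more than 1.24 CPM. The fitted log2 fold change was 4.49 ± 0.43 after LPS. Against LPS it was -4.17 ± 0.39 for POx-SA, -4.07 ± 0.38 for PPLG-SA, -5.90 ± 0.44 for PPLG-2V-SA, which rests on counts of 1, 3 and 6, and -3.83 ± 0.36 for PPLG-4V-SA. These too are a description with no p-value, since Tnfaip6 was tested only through the LPS group, in which it was high. On log2(FPKM + 1) the difference with POx-SA was -2.58. Against untreated cells none of the 4 polymer groups was called for Tnfaip6, with differences of 0.32, 0.42, -1.41 and 0.66 in the same order; that of PPLG-2V-SA, with adjusted p = 0.0545, was called in DESeq2 (-1.53, adjusted p = 0.0353).

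The polymers were compared with each other in 6 pairs. Against POx-SA, 5 of 8 members were called with PPLG-SA, 6 with PPLG-2V-SA and 5 with PPLG-4V-SA, where 57.7%, 64.0% and 57.9% of all tested genes were called in either direction. Tnfsf15, tested only through the PPLG groups, is among those called in these 3 and in the PPLG groups against untreated cells below. Between PPLG-2V-SA and PPLG-SA 6 members were called (27.9% of all genes), and between PPLG-4V-SA and PPLG-2V-SA 4 were (12.0%). Tnfaip6, tested only through the LPS group, is among those called in each pair with PPLG-2V-SA, where it had counts of 1, 3 and 6. Each of these Tnfaip6 calls was lost without PPLG-2V-SA replicate 1 (adjusted p from 0.0512 to 0.0743 in edgeR). Between PPLG-4V-SA and PPLG-SA 1 of 8 was called, where 1.65% of all genes were. This was Tnfaip2, higher with PPLG-4V-SA by 0.41 ± 0.10 (adjusted p = 0.0403), and the call was lost without any 1 library of either group (adjusted p from 0.0822 to 0.198). The intervals of the other 7 differences between PPLG-4V-SA and PPLG-SA reached at most 0.61 for members above the floor, and -0.89 for Tnfsf15 and 1.15 for Tnfaip6, the 2 of low count. As doses and times are not given, pairs may differ in them.

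Against untreated cells, which differ from the polymer groups by LPS as well, 5 members were called with POx-SA (58.3% of all genes), 4 with PPLG-SA (67.9%), 5 with PPLG-2V-SA (74.0%) and 4 with PPLG-4V-SA (70.3%). Adam17 stood at -0.44 with POx-SA (adjusted p = 0.0147) and at 1.00, 1.58 and 1.14 with the PPLG polymers. The value with POx-SA was not called on plain library totals (-0.25, adjusted p = 0.196) or without POx-SA replicate 3 (-0.30, adjusted p = 0.0976) or untreated replicate 2 (-0.41, adjusted p = 0.0509). Tnfrsf1b stood at -2.58 with POx-SA and -2.81 with PPLG-2V-SA. With PPLG-SA it was at -0.37 (adjusted p = 0.00713), which became 0.02 (adjusted p = 0.908) on plain totals.

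Tnf lies between Ltb and Lta on the chromosome, in the order of the RefSeq annotation, and these neighbours encode the lymphotoxins, ligands of the same family. Neither followed Tnf. Lta held 1.45 ± 0.315 CPM untreated, 1.35 ± 0.578 with LPS and 1.63 ± 0.621 with POx-SA (SD, n = 3), and 23.0 ± 2.88, 21.5 ± 3.86 and 26.4 ± 1.49 CPM with the PPLG polymers. It rose against LPS by 4.08 ± 0.26, 3.98 ± 0.26 and 4.28 ± 0.26 on the log2 scale with those 3 polymers (adjusted p = 6.96e-10, 5.51e-10 and 3.95e-10), and was not called after LPS or with POx-SA. Ltb held 22.7 ± 2.63 CPM untreated, 27.3 ± 3.69 with LPS, 20.7 ± 1.55 with POx-SA, and 72.4 ± 10.2, 172 ± 13.1 and 94.9 ± 2.11 CPM with the PPLG polymers. It rose by 1.41, 2.65 and 1.80 with these (adjusted p = 3.94e-08, 1.07e-11 and 2.15e-09) and fell by 0.40 with POx-SA (adjusted p = 0.0151). In the PPLG groups Tnf thus fell while the genes on either side of it rose.

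**Figure D4:**
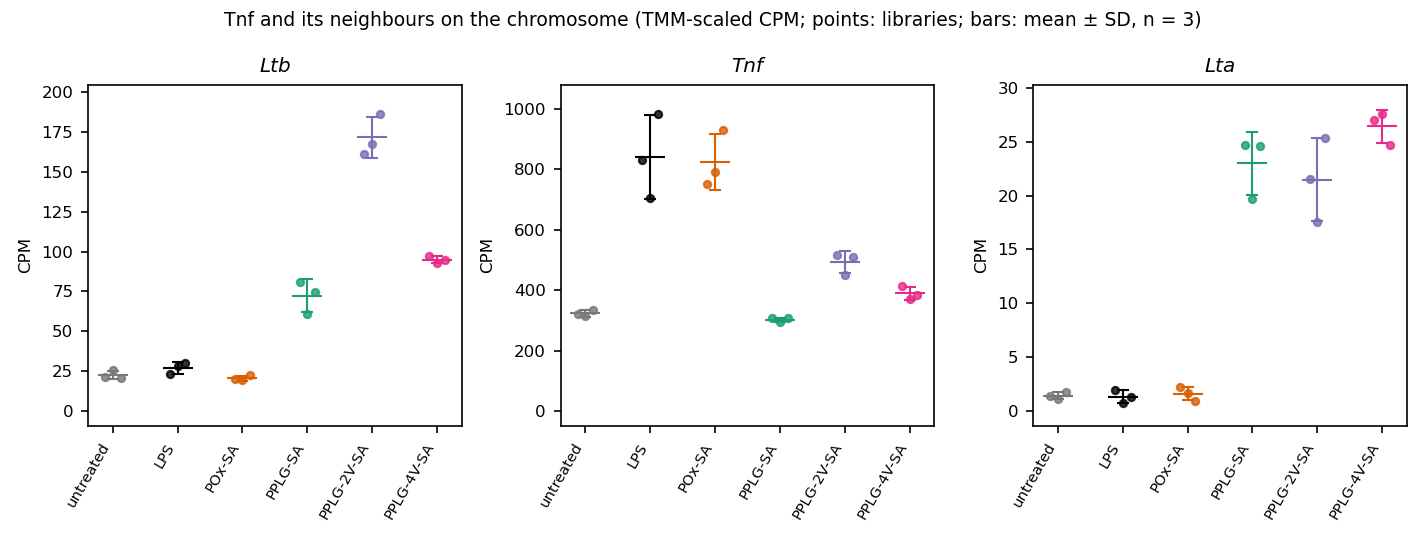
Levels of Ltb, Tnf and Lta (vertical axes, TMM-scaled CPM, linear), which are next to each other on the chromosome, in the 6 groups; points are libraries, bars the mean ± SD of 3. Lta was at 1.35 to 1.63 CPM in the 3 groups without PPLG polymers and at 21.5 to 26.4 CPM with them, and Tnf was highest with LPS and POx-SA.

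Other members also lie beside genes of their family. Tnfsf8, the ligand gene next to Tnfsf15, had 0 counts in the untreated, LPS and POx-SA libraries and 0.369, 1.35 and 0.574 CPM in the PPLG groups. It was tested only through these groups, so no p-value is given. Tnfrsf8, which encodes CD30 and lies next to Tnfrsf1b, stood at 1.31 CPM untreated and 5.42 CPM with LPS, a fitted log2 fold change of 2.05 ± 0.41. Against LPS its fitted log2 fold change was -1.64 with POx-SA and -2.81, -2.96 and -1.93 with the PPLG polymers. It reached the minimum count in every library of 3 groups alone, LPS, POx-SA and PPLG-4V-SA, so these are given with no p-value. Cd70, next to Tnfsf9, had at most 3 counts in a library and was not tested.

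Of the other ligands of the TNF family, 6 of 15 were expressed enough to be tested. After LPS 0 rose and 2 fell, Tnfsf12 (TWEAK) by 2.24 ± 0.32 on the log2 scale and Tnfsf13b (BAFF, a survival factor of B cells) by 0.97 ± 0.20. With POx-SA 0 rose and 2 fell, Ltb and Tnfsf13b. In both comparisons 33.3% of those tested fell, where 28.4% and 24.1% of all tested genes fell and 30.8% and 22.2% rose. With each PPLG polymer 4 rose and 0 fell, or 66.7% and 0%, where 28.0% to 30.8% of all tested genes rose. One of the 4 is Tnfsf8, tested only through PPLG groups. The list median was 1.31, 2.08 and 1.52, where the medians of all genes were 0.00, 0.03 and 0.02. Beside Lta and Ltb, Tnfsf13b rose by 1.21 ± 0.19, 1.50 ± 0.19 and 1.25 ± 0.19, to 5.16 to 6.29 CPM. Tnf was thus called lower where these ligands were called higher.

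Of 26 other receptors of the family, 18 were tested. After LPS 7 rose and 5 fell, with POx-SA 3 and 7, with PPLG-SA 7 and 8, with PPLG-2V-SA 7 and 8, and with PPLG-4V-SA 7 and 6. The shares that rose were thus 16.7% to 38.9% and those that fell 27.8% to 44.4%, where 22.2% to 30.8% of all tested genes rose and 24.1% to 30.7% fell over the same 5 comparisons. Of the 18, 4 did not reach the minimum count in all libraries of every group. Among these are Tnfrsf8 and Tnfrsf4, both counted as risen after LPS, so the counts and shares are a description. Eda2r, a receptor for ectodysplasin, rose with the PPLG polymers by 4.54 ± 0.27, 3.44 ± 0.27 and 4.00 ± 0.27 from 1.63 CPM with LPS. Tnfrsf13b, which encodes TACI, a receptor for BAFF, rose by 2.38 ± 0.15, 2.49 ± 0.15 and 2.50 ± 0.15 from 5.30 CPM. Both the BAFF gene and this receptor gene were thus called higher with each PPLG polymer. With POx-SA Tnfrsf26 rose by 1.05 ± 0.10, and Tnfrsf22, a decoy receptor for TRAIL in mice, fell by 0.88 ± 0.10. After LPS Tnfrsf10b, the TRAIL death receptor, rose by 1.51 ± 0.14, while Relt fell by 1.06 ± 0.10 and Tnfrsf23 by 0.86 ± 0.11.

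Of 10 genes whose products act on the shedding of TNF, 8 were tested. After LPS 2 rose and 2 fell, with POx-SA 1 and 4, with PPLG-SA 2 and 6, and with PPLG-2V-SA and PPLG-4V-SA 2 and 3 each. After LPS 25% rose and 25% fell, near the shares of all genes (30.8% and 28.4%). The 6 that fell with PPLG-SA are 75% of those tested, where 30.7% of all genes fell, and the 4 with POx-SA are 50%, where 24.1% did. With PPLG-2V-SA and PPLG-4V-SA 25% rose and 37.5% fell, near the shares of all genes (30.8% and 30.2%, 28.0% and 27.1%), and the list medians were 0.04 and 0.00. Furin, which encodes the convertase that removes the prodomain of ADAM17, held 1159 ± 57.7 CPM untreated and 1160 ± 107 CPM with LPS (SD, n = 3). It fell with POx-SA to 452 ± 78.1 CPM, by 1.36 ± 0.12 on the log2 scale. With the PPLG polymers it fell to 87.4 ± 1.21, 62.6 ± 3.98 and 112 ± 9.49 CPM, with log2 fold changes of -3.73 ± 0.13, -4.21 ± 0.13 and -3.37 ± 0.13. With the PPLG polymers Furin thus fell where Adam17 rose, and with POx-SA both fell.

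Rhbdf2 encodes iRhom2, which carries ADAM17 to the cell surface in macrophages. It held 257 ± 13.2 CPM with LPS and 115 ± 1.57, 124 ± 7.72 and 133 ± 8.11 CPM with the PPLG polymers, with log2 fold changes of -1.16 ± 0.09, -1.05 ± 0.09 and -0.95 ± 0.09, all called. Timp1, an inhibitor of metalloproteases, fell from 52.9 ± 9.24 CPM with LPS to 5.40 ± 1.49 with POx-SA, and to 7.49 ± 0.0666, 0.643 ± 0.150 and 6.73 ± 1.12 with the PPLG polymers. Its log2 fold changes were -3.29 ± 0.18 with POx-SA, and -2.82 ± 0.17, -6.32 ± 0.23 and -2.97 ± 0.17. With PPLG-2V-SA alone Timp1 did not reach the minimum count in every library, so the size of -6.32 rests on few counts. Like Tnfrsf1b, Timp1 was lower with PPLG-2V-SA than in the other PPLG groups, with ranges that did not overlap. Timp3, the inhibitor known for acting on ADAM17, was too low to be tested. Sppl2b, an intramembrane protease that cuts the stub left by ADAM17, rose after LPS by 0.51 ± 0.14 and fell with POx-SA by 1.89 ± 0.14, and its paralogue Sppl2a fell after LPS by 0.34 ± 0.12, as did Rhbdf1 by 0.90 ± 0.14.

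Among 14 regulators of the Tnf mRNA, of which 14 were tested, 2 rose and 8 fell after LPS. With POx-SA 4 rose and 4 fell, with PPLG-SA 3 and 6, and with PPLG-2V-SA and PPLG-4V-SA 2 and 5 each. The share that fell after LPS was 57.1%, against 28.4% of all genes. With the polymers 28.6% to 42.9% fell, against 24.1% to 30.7%, and 14.3% to 28.6% rose, against 22.2% to 30.8%. Zfp36 encodes tristetraprolin, which binds AU-rich elements and shortens the life of the Tnf mRNA. It held 825 ± 8.42 CPM untreated, 2445 ± 51.2 with LPS, 937 ± 162 with POx-SA, and 317 ± 6.72, 201 ± 16.0 and 408 ± 16.0 CPM with the PPLG polymers. It rose by 1.57 ± 0.11 after LPS and fell by 1.38 ± 0.11 with POx-SA. With the PPLG polymers its log2 fold changes were -2.95 ± 0.12, -3.61 ± 0.12 and -2.58 ± 0.11, all called. With POx-SA, Zfp36 fell while Tnf was not called, and with the PPLG polymers both fell.

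Zc3h12a, which encodes the endonuclease Regnase-1, fell by 2.01 ± 0.14 with PPLG-SA and by 1.52 ± 0.14 with PPLG-4V-SA. Litaf, named as an LPS-induced TNF factor, fell by 1.52 ± 0.14 with PPLG-2V-SA. Zfp36l2 fell after LPS by 1.64 ± 0.16, with PPLG-2V-SA by 1.59 ± 0.16 and with PPLG-4V-SA by 1.36 ± 0.16, and Zfp36l1 fell after LPS by 1.68 ± 0.16. Both are paralogues of Zfp36. Map3k8, a kinase upstream of ERK, fell by 0.99 ± 0.12 with PPLG-SA, and Mapkapk2, a kinase that phosphorylates tristetraprolin, by 0.68 ± 0.12 with POx-SA. Rc3h1, which encodes Roquin-1, rose by 1.30 ± 0.27 with POx-SA.

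**Figure D5:**
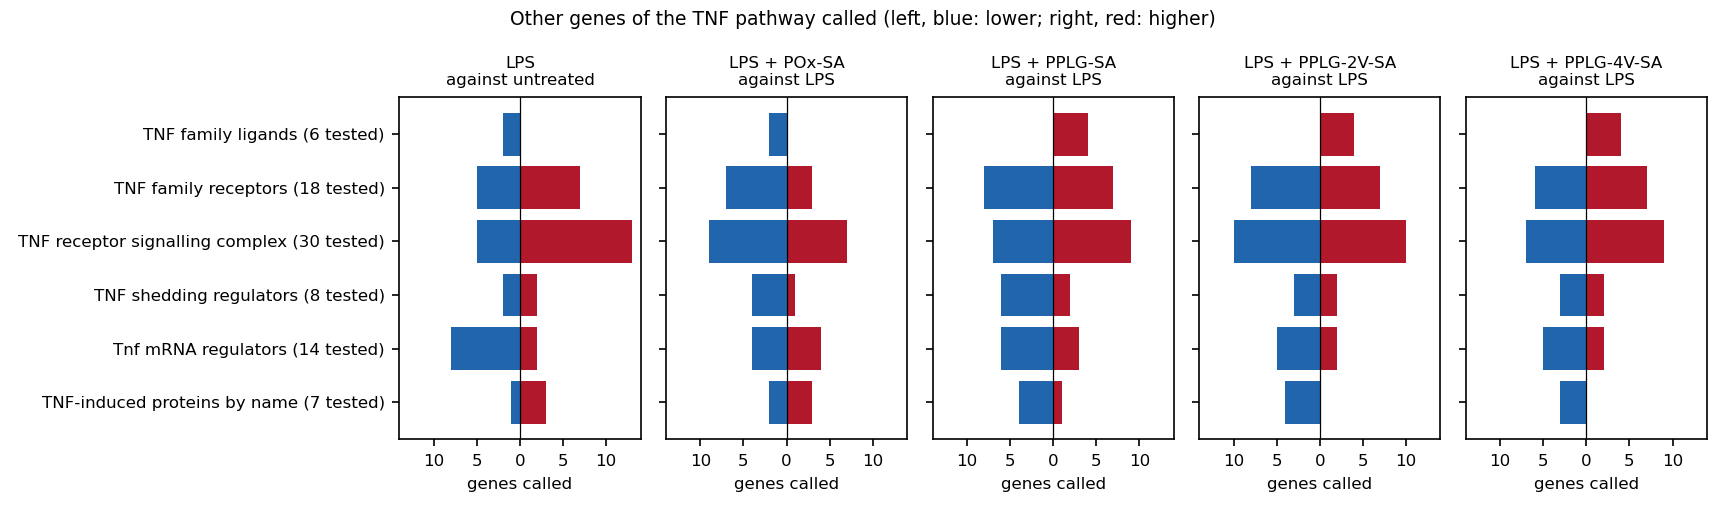
Number of genes called (horizontal axis) in 6 lists that hold none of the 8 members, after LPS and with each polymer compared with LPS. The lists hold TNF pathway genes, and the list chosen by name also holds C1qtnf6 and C1qtnf12. Blue bars to the left are genes called lower and red bars to the right genes called higher by edgeR. Of 6 ligands tested, 4 were higher with each PPLG polymer (28.0% to 30.8% of all tested genes were), and 1 of the 4, Tnfsf8, was tested only through PPLG groups. Of 8 shedding regulators, 6 were lower with PPLG-SA (30.7% of all tested genes were).

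In the signalling complex of the TNF receptors all 30 genes were tested, and calls went both ways. After LPS 13 rose and 5 fell, with POx-SA 7 and 9, with PPLG-SA 9 and 7, with PPLG-2V-SA 10 and 10, and with PPLG-4V-SA 9 and 7. After LPS 43.3% rose and 16.7% fell, against 30.8% and 28.4% of all genes. Fadd, counted among the 13, did not reach the minimum count in every untreated library, so these shares are a description. With the polymers 23.3% to 33.3% rose and 23.3% to 33.3% fell, near the shares of all genes. Birc3, which encodes the ubiquitin ligase cIAP2, rose after LPS by 1.87 ± 0.12 and further with PPLG-2V-SA by 1.22 ± 0.11. Ripk1, a kinase of the complex, rose after LPS by 2.01 ± 0.20. Rnf31, the catalytic subunit of the linear ubiquitin ligase, fell with the PPLG polymers, at log2 fold changes of -0.85 ± 0.10, -1.13 ± 0.10 and -0.86 ± 0.10, and so did Otulin, which removes linear ubiquitin, at -1.13 ± 0.11, -0.96 ± 0.10 and -1.03 ± 0.10. The ligase and the enzyme that opposes it were thus both called lower.

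With POx-SA, Tnfaip3, which encodes the inhibitor A20, fell by 1.61 ± 0.14 and its partner Tnip1 by 0.98 ± 0.12, while Ikbkg, the regulatory subunit NEMO, rose by 1.02 ± 0.13. Traf5 fell after LPS by 1.40 ± 0.14 and rose with PPLG-SA by 1.66 ± 0.13 and with PPLG-4V-SA by 1.41 ± 0.13. Of 9 genes named after TNF that are not members, 7 were tested, and Tnfaip3 is also one of the 30 above. After LPS 3 rose and 1 fell, with POx-SA 3 and 2, with PPLG-SA 1 and 4, with PPLG-2V-SA 0 and 4, and with PPLG-4V-SA 0 and 3. After LPS 42.9% rose and 14.3% fell, against 30.8% and 28.4% of all genes. With POx-SA 42.9% rose and 28.6% fell, against 22.2% and 24.1%. The shares that fell with the PPLG polymers were 57.1%, 57.1% and 42.9%, against 30.7%, 30.2% and 27.1% of all genes. C1qtnf12, counted as risen after LPS and as fallen with each PPLG polymer, was tested only through the LPS group, in which it was high. The counts and shares of this list are therefore a description. Tnfaip1 fell with the PPLG polymers, at log2 fold changes of -0.42 ± 0.09, -0.58 ± 0.09 and -0.45 ± 0.09, and rose with POx-SA by 0.64 ± 0.09, and Tnfaip8 fell with POx-SA by 0.84 ± 0.09. Tnfaip1 thus went the same way as Tnfaip2 with POx-SA and with PPLG-SA.

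For the 5 members whose group means spanned at least 1 on the log2 scale, the genes of most similar pattern over the 18 libraries were sought among 11621 tested genes, by the root mean square distance of log2 CPM centred on each gene's mean. For Tnf they were Sf3a2, Txndc11 and Psmg3, at distances of 0.15, 0.21 and 0.22, where the spread of Tnf itself was 0.60. For Adam17 the first 2 were Rigi and Phkb (0.15 and 0.17, against 0.71). Tnfrsf1b was closest to Myc, Crispld2 and Syn1 (0.46, 0.48 and 0.52, against 1.23), Tnfsf15 to Spry4, Trpm6 and Plau (0.77, 0.84 and 0.85, against 2.44), and Tnfaip6 to Rnd1, Arc and Fam43a (0.73, 0.79 and 0.86, against 1.70). In proportion to the spread of the member, Rigi and Phkb for Adam17 and Sf3a2 for Tnf were the closest of these. Txndc11 and Psmg3 were no closer to Tnf than Spry4, Trpm6 and Plau were to Tnfsf15. Tnfrsf1b and Tnfaip6 were matched less closely. These distances describe the 18 libraries, which share their 6 groups, and carry no test.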

How the data were processed

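RNA of RAW264.7 cells was measured in 18 libraries, grouped by the treatment in the labels, with replicate numbers from the titles. The deposited table of raw counts per gene symbol (no normalization, from its values) was used for all tests. The deposited FPKM, scaled by the authors to library total and to a gene length not fixed across libraries, was used for levels across genes. Per the submitters' processing notes, GRCm39 was the build and CASAVA a tool. Aligner, counter, annotation and strandedness were not given in the sources used here. No columns of other samples were present.

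Low genes were removed by filterByExpr with a minimum count of 10 and total of 15, and the rest were tested by the quasi-likelihood test of edgeR 4.0.16 in R 4.3.3. All 18 libraries entered 1 fit, with TMM factors of 0.812 to 1.15 and 12 residual degrees of freedom. Benjamini-Hochberg adjustment was made per comparison (15 in all). The SE is the log2 fold change divided by the square root of F. The fit was tested on simulated data. Alternatives were DESeq2 1.42.0, its size factors, plain totals, other filters, limma 3.58.1 on log2(FPKM + 1) and log2(FPKM + 0.1), 2-group fits, a replicate block, and leaving out each library in turn.

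Names and neighbours came from a RefSeq table of another build, so no coordinates are given. The members, the lists (10, with 138 genes) and the comparisons were chosen with earlier results of these data known. Named genes are the 8 members, up to 3 called genes of smallest p per list and comparison, and the 3 most similar to each of 5 members (1 of these is not reported here); Tnfrsf9, Tnfrsf25, Timp3, the neighbours and the Y-linked genes were added. Of genes that meet this rule, some markers and C1qtnf6, Tnfaip8l1 and Tnfaip8l2 are not described, and S100a8, S100a9 and C1qtnf12, at or near 0 counts in PPLG groups, are not given as folds. Same-numbered libraries deviated together (r above 0.1) in 8 of 45 pairs. Between the LPS and POx-SA groups every pair did (0.166, 0.164 and 0.739). The labels state no pairing, and these values cannot tell a pairing from 1 deviation shared by replicates 3. The main fit holds no pairing, and the replicate block was run as an alternative. No replicates agreed within sampling noise.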

Additional observations from a re-analysis of the deposited data

How the results depend on the processing

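Of 1908 values recomputed for 120 results, 1722 kept their call and direction, 89 lost a call, 82 gained one and 15 reversed. The 15 were all against untreated cells and on plain library totals, log2(FPKM + 1) and log2(FPKM + 0.1), in that order. With PPLG-SA, Tnf became 0.29, 0.38 and 0.38 and Tnfrsf1b 0.017, 0.16 and 0.16. With PPLG-2V-SA, Tnfaip2 became 0.39, 0.36 and 0.37. With PPLG-4V-SA, Tnfrsf1b became 0.29, 0.43 and 0.43 and Tnfaip2 0.10, 0.094 and 0.096. The cause was not tested.

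The number of members called moved by more than 1.5 times in 5 comparisons. In fits of 2 groups alone it was 3 for PPLG-2V-SA against POx-SA, 3 for POx-SA and 7 for PPLG-SA against untreated. For PPLG-4V-SA against PPLG-SA, 1 in the main test, it was 0 with the size factors of DESeq2, without a filter, with a filter of 1 CPM, with the replicate block and without any 1 library (range 0 to 0). It was 2 on plain totals, on both FPKM scales, in DESeq2 and without replicates 3 of LPS and POx-SA, and 3 in a fit of the 2 groups. Leaving out 1 library, PPLG-4V-SA against PPLG-2V-SA gave 1 to 2, and POx-SA against untreated 3 to 5. Calls over all genes moved too. For PPLG-4V-SA against PPLG-SA they were 145 higher and 78 lower in the main test and 373 and 283 in DESeq2. They were 1579 and 1790 in the 2-group fit, and 4 and 1 without PPLG-SA replicate 1. For PPLG-SA against untreated they were 4730 and 4425 in the main test and 5097 and 5015 in the 2-group fit.

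The replicate block ended the call of Tnfaip2 for POx-SA against untreated (0.24, adjusted p = 0.0504) and for PPLG-4V-SA against PPLG-SA (0.40, adjusted p = 0.0505), called Tnf for PPLG-4V-SA against PPLG-2V-SA (-0.34, adjusted p = 0.0367) and changed no other call. In no other pair of groups did all same-numbered libraries deviate together, and 7 of all 18 libraries correlated best with one of their own number. Depth limits Tnfsf15 and Tnfaip6, whose folds rest on a few counts in their low groups. With 3 libraries per group, small differences can be missed. In 2-group fits, members that failed the filter there gave no value.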
